A study of Bos taurus with 6 samples.

Results

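The genes described here are nuclear genes of the mitochondrial respiratory chain and the ATP synthase, and most of them encode subunits. They were taken from the deposited gene tables by symbol: NDUFA, NDUFB, NDUFC, NDUFS or NDUFV with a digit, SDHA to SDHD, UQCR genes, CYC1, COX4 to COX8 subunits and ATP5 genes. In all, 85 of 23015 rows met this rule, with 38 in complex I, 4 in complex II, 9 in complex III, 15 in complex IV and 19 in complex V. NDUFA4 stands with complex I here because of its symbol, although its protein is now known as a complex IV subunit. The rule goes by symbol, so the counts also hold genes such as ATP5IF1, an inhibitor, and COX7A2L, which joins complexes III and IV.

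RNA was sequenced from the longissimus thoracis muscle (LT, the ribeye) of 6 Korean cattle steers, 1 library per steer. The LT of 3 steers had a high number of fine marbling particles (NFMP, small flecks of intramuscular fat) and that of 3 had a low number. The high-NFMP steers were 3-8, 10-8 and 10-9, aged 32.5, 33.8 and 34.5 months, and the low-NFMP steers were 3-1, 3-3 and 10-16, aged 37.8, 33.7 and 35.4 months. All 6 were castrated males of the Hanwoo breed raised conventionally on commercial feed, and the labels name no treatment. The groups were chosen by NFMP from a larger feeding trial, so other carcass traits can differ between them. For the sequenced steers the study reports a higher marbling score, rib eye area and auction price in high NFMP. Differences between the groups cannot be assigned to NFMP apart from these traits. Whole muscle was used, so the RNA holds fibres, fat cells, vessels and connective tissue together.

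The respiratory chain sits in the inner mitochondrial membrane. Complexes I and II pass electrons from NADH and succinate to coenzyme Q, complex III passes them on to cytochrome c, and complex IV gives them to oxygen. Complexes I, III and IV pump protons as they do so, and the ATP synthase (complex V) makes ATP from the proton gradient, so oxidative muscle fibres are rich in all of these. Some subunits come from the mitochondrial genome and the rest from nuclear genes, and complex IV has subunit isoforms that mark striated muscle.

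Libraries held 16283873 to 17192750 counts, and the members took 1.31% to 1.69% of them. Skeletal muscle markers summed to between 88021 and 112409 CPM (counts scaled to a common library size, here with TMM factors) and 5 red cell genes to between 1.79 and 4.04 CPM. Fat cell markers summed to 946 CPM in steer 3-8 and to between 459 and 605 CPM in the other 5, with 5 of 10 (CIDEA, LIPE, ADIPOQ, PLIN4 and CIDEC) higher in high NFMP at an unadjusted p below 0.05, LIPE and PLIN4 being under 1.5-fold and singled out with values known. Without 3-8 the log2 fold change of ADIPOQ moved from 0.63 to 0.36 and that of CIDEC from 0.89 to 0.45, and ADIPOQ and CIDEA lost that p, as they did with age as a term, where CIDEC lost it too. CIDEA also lost it without 10-8, 3-3 or 10-16. Of 6 endothelial markers 1 was higher at that p, CLDN5 at 0.93 (SE 0.31), and 3 were above and 3 below 0. Of 7 macrophage markers 1 was higher, C1QA at 0.73 (SE 0.30), and 5 were above and 2 below 0. Of 6 fibroblast markers 1 was lower, PDGFRA at −0.51 (SE 0.22), and 4 were above and 2 below 0. Of 7 skeletal muscle markers 1 was lower, MYOT at −0.50 (SE 0.20), and 4 were above and 3 below 0. PDGFRA and MYOT were under 1.5-fold and named with their values known. Over all rows, 5.73% were higher and 5.74% lower at that p. With age as a term CLDN5 and C1QA lost that p. C1QA also lost it without 3-8 or 3-1, with library totals alone and with limma on quantile-normalised values. Its log2 fold change was 0.42 without 3-1 and 0.20 with age as a term. Levels are CPM not divided by gene length, since the 3′ kit reads mainly the ends of transcripts. In whole muscle, fewer cells of a type and less RNA per cell cannot be told apart.

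The summed level of the members differed less between the group means than between steers within a group. The sum was 12832, 16707 and 16975 CPM in steers 3-8, 10-8 and 10-9, and 14401, 15006 and 16944 CPM in steers 3-1, 3-3 and 10-16. The means were 15504 ± 2318 CPM in high NFMP and 15451 ± 1329 CPM in low NFMP (SD, n = 3 each), a ratio of 1.003. The groups overlapped, and the lowest and the highest steer were both in the high-NFMP group.

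The sums separated by the first number of the steer label, whose meaning the labels do not give. The 3 steers whose label begins with 3, of which 1 is high and 2 are low NFMP, were all below the 3 whose label begins with 10, of which 2 are high and 1 is low NFMP. This held for all members and for each of the 5 complexes. Among the steers beginning with 3 the high-NFMP steer, at 12832 CPM, lay below both low-NFMP steers, at 14401 and 15006 CPM, and among those beginning with 10 the high-NFMP steers, at 16707 and 16975 CPM, lay on either side of the low-NFMP steer, at 16944 CPM. The split was noticed after the values were seen and was not tested.

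**Figure D1:**
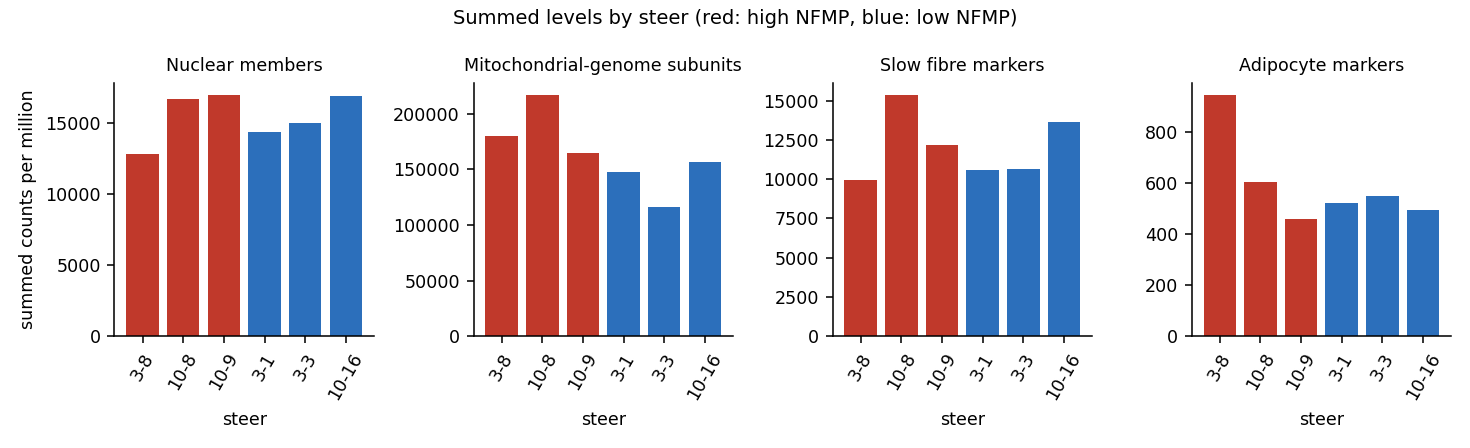
Bars give the summed CPM (linear axis from 0) of the nuclear members, the 13 mitochondrial-genome subunits, 11 slow fibre markers and 10 adipocyte markers in each steer, red for high and blue for low NFMP. Steer 3-8 has the lowest member sum, 12832 CPM, and the highest adipocyte sum, 946 CPM.

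Among steers the members moved largely together. Steer 3-8 was the lowest of the 6 for 49 of the 84 tested members and the highest for 0, and its median log2 deviation from each gene's mean was −0.26. Steers 10-8, 10-9 and 10-16 stood above the mean for 63, 58 and 69 members, with median deviations of 0.14, 0.14 and 0.13. Steers 3-1 and 3-3 lay between, at −0.08 and −0.03. Steer 3-8 also had the most adipocyte RNA. Its sums were the lowest of the 6 for slow fibre markers (9942 CPM, against 10591 to 15355), fast fibre markers (26515 CPM, against 28484 to 39188) and mitochondrial genes outside the chain (1116 CPM, against 1210 to 1390), and the part of any of these in its member levels was not tested.

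Steer 10-9 differed from the rest in how uneven its members were. It was the highest steer for 36 members and the lowest for 12, and its deviations ran from −0.99 to 0.97 on the log2 scale. The members at their lowest there were NDUFA1, NDUFB1, NDUFB3, NDUFB5, NDUFS1, SDHC, SDHD, UQCRB, UQCRFS1, COX7A2L, COX7C and ATP5MC3. These lie in all 5 complexes, and the list was read off after the values were seen.

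**Figure D2:**
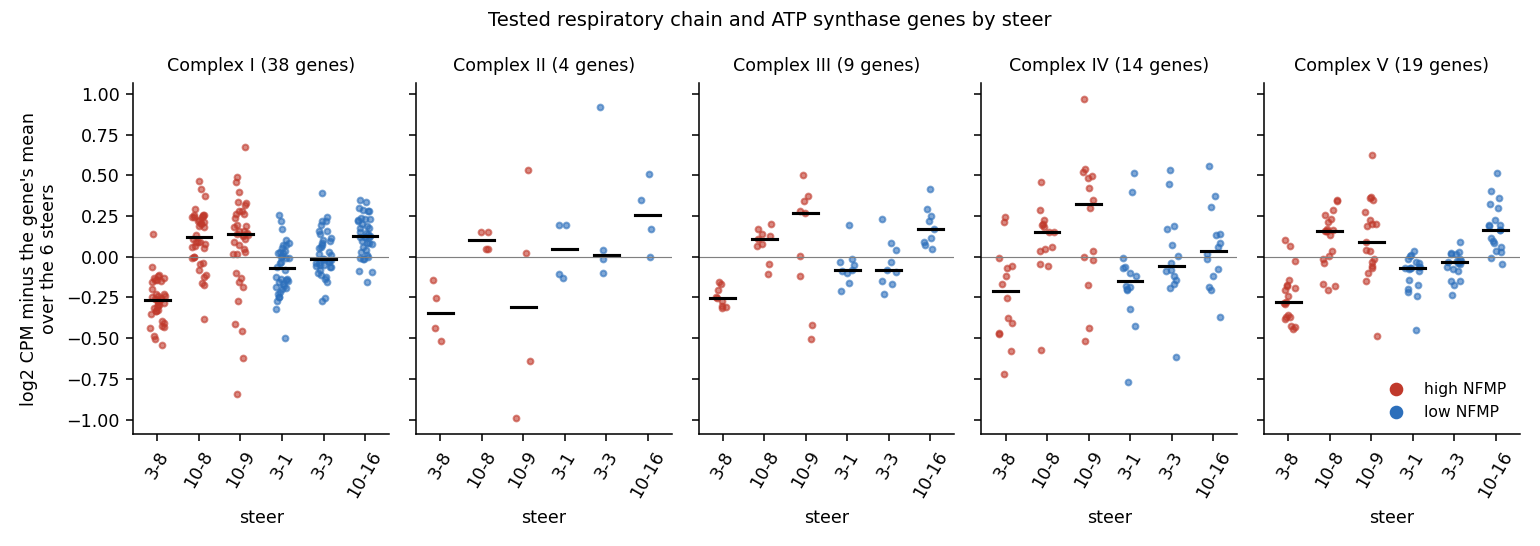
Each point is 1 tested member in 1 steer, as log2 CPM minus that gene's mean over the 6 steers, and black bars are medians within a complex. The points of 3-8 sit mostly below 0 and those of 10-9 are the most spread, from −0.99 to 0.97.

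By complex, the summed levels of high and low NFMP overlapped in every case. Complex I summed to 4840 ± 739 CPM in high and 4926 ± 352 CPM in low NFMP, complex II to 833 ± 116 and 884 ± 76.2 CPM, and complex III to 2040 ± 297 and 2053 ± 191 CPM. Complex IV summed to 2866 ± 575 and 2678 ± 193 CPM, and complex V to 4926 ± 624 and 4910 ± 542 CPM (SD, n = 3). The high to low ratios of 0.982, 0.941, 0.994, 1.07 and 1.00 each lay well within the spread between steers. No test between complexes was run.

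Gene by gene, few members differed. The comparison used edgeR's quasi-likelihood test on all 15039 rows that passed the count filter, which 84 of the 85 members did. COX7B2, a testis isoform of a complex IV subunit, was removed by the filter with 7, 12 and 4 counts in high and 2, 12 and 10 in low NFMP. At an unadjusted p below 0.05, 1 member was higher in high NFMP (1.19%, against 5.73% of all tested rows) and 5 were lower (5.95%, against 5.74%), so 6 in either direction (7.14%, against 11.5%). With a fold above 2 as well, 0 members passed, against 3.9% of all rows. After Benjamini-Hochberg adjustment over all rows edgeR called 0 members, against 0.685% of all rows, while DESeq2 called 1, SDHD, and limma 0.

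These shares were near the background or under it. Of the 84 log2 fold changes (high minus low NFMP) 44 were positive and 40 negative, with a median of 0.01 where all tested rows had 0.02, and only 4 passed 0.5 in size. The medians were −0.04 in complex I, −0.22 in complex II, −0.01 in complex III, 0.11 in complex IV and 0.02 in complex V. With the first label number as a term they were −0.11, −0.30, −0.15, −0.01 and −0.11, and −0.10 over all members. The median standard error of a member was 0.19, against 0.28 over all rows. Members whose 3 high-NFMP steers all lay above the 3 low-NFMP steers numbered 2 (2.38%, against 7.97%), and those all below numbered 5 (5.95%, against 9.16%).

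The counts depended on which steers were included. Without 3-8, 6 members were higher and 4 lower at an unadjusted p below 0.05, the 6 being NDUFA4L2, NDUFB11, COX4I1, NDUFS8, COX8B and NDUFS7. Of all rows tested without 3-8, 15.3% were at that p in either direction, the highest share of any left-out steer. Without 10-8, 1 was higher and 7 lower. Without 10-9, 3-1 or 3-3, 0 were higher and 4 lower, and without 10-16, 0 were higher and 2 lower. In these other fits the share over all rows was 8.45% to 10.2%. The 4 members called without 10-9 were SDHD, COX7A2, NDUFA3 and NDUFA12, of which only SDHD was called in the fit on all steers. These lists of names were read off after the values were seen. The median log2 fold change over all members was 0.13 without 3-8 and 0.13 without 10-16, and that of complex I turned positive in both, at 0.08 and 0.10. That of complex III turned positive without 3-8, 10-8 or 10-16, at 0.13, 0.09 and 0.14, and with age as a term, at 0.10.

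**Figure D3:**
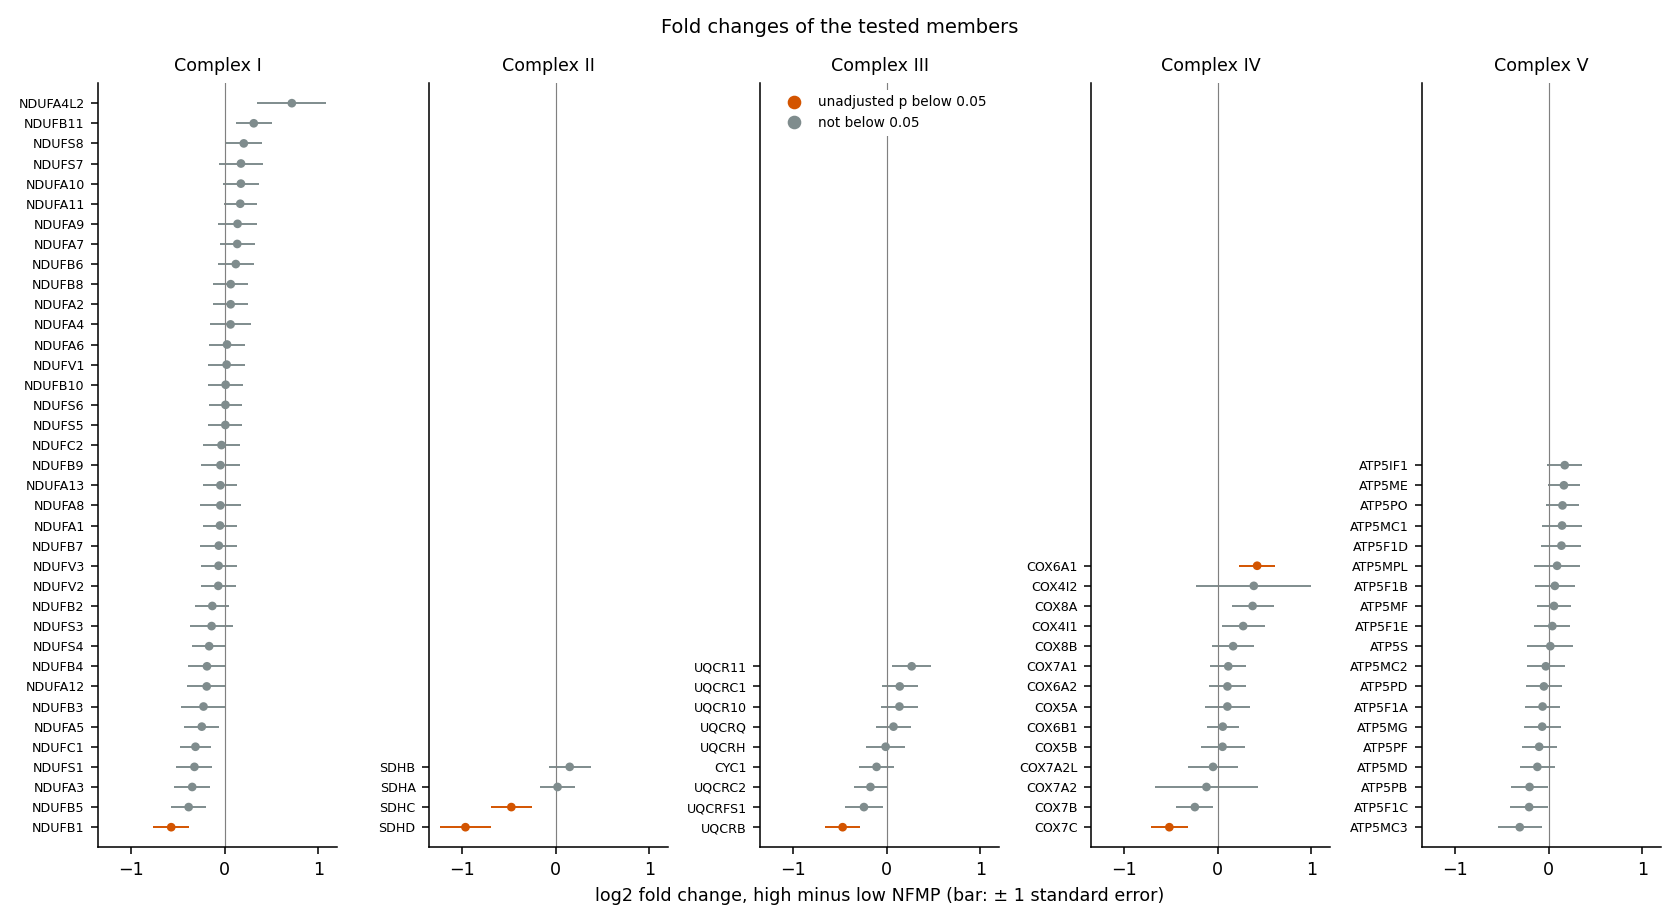
Points give the tested members' log2 fold change, high minus low NFMP, from edgeR, with bars of ± 1 standard error, sorted within each complex, and 1 complex I member is not drawn. The 6 members at an unadjusted p below 0.05 (orange) are SDHD, SDHC, NDUFB1, UQCRB, COX7C and COX6A1, and the rest lie on both sides of 0.

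Complex I, the NADH dehydrogenase, had 18 members above and 20 below 0. Its 7 core subunits from the nucleus, which carry the flavin and the iron-sulphur clusters, summed to 1038 ± 199.7 CPM in high and 1025 ± 89.6 CPM in low NFMP (SD, n = 3), and 0 of 7 had an unadjusted p below 0.05. NDUFA4, the most counted of the complex, stood at 467, 556 and 810 CPM against 537, 577 and 640 CPM, with a log2 fold change of 0.06 (SE 0.22). The role groups used here were drawn up after the values were seen.

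NDUFB1, a small accessory subunit of the membrane arm, was the 1 complex I member at an unadjusted p below 0.05. It stood at 83.5, 99.9 and 64.8 CPM in steers 3-8, 10-8 and 10-9 and at 119, 131 and 117 CPM in steers 3-1, 3-3 and 10-16. Every high-NFMP steer lay below every low-NFMP steer. Its log2 fold change of −0.57 (SE 0.19) came with an unadjusted edgeR p of 0.0101 and an adjusted p of 0.256. Leaving out steer 10-9, in which it was lowest, moved the unadjusted edgeR p to 0.0532.

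Several other accessory subunits had negative values that did not pass the test as fitted here on group alone. NDUFC1 stood at 91.1, 90.6 and 90.9 CPM in high and 114, 109 and 116 CPM in low NFMP, so the groups did not overlap, with a log2 fold change of −0.31 (SE 0.17). NDUFA3 stood at 22.0, 25.7 and 30.1 CPM against 30.6, 32.5 and 35.6 CPM, again without overlap. NDUFB5 had a log2 fold change of −0.38 (SE 0.19) and overlapping groups. With the first label number as a term NDUFA3 and NDUFB5 were at an unadjusted p below 0.05, and with library totals alone NDUFB5 and NDUFC1 were. These 3 were named after their values were seen.

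NDUFA4L2, a hypoxia-induced relative of NDUFA4, had the largest positive value among all members and the lowest level in complex I. It stood at 2.41, 4.37 and 5.13 CPM in high and 1.99, 2.42 and 2.82 CPM in low NFMP, with 3-8 among the low-NFMP steers. A log2 fold change of 0.72 (SE 0.37) came with an unadjusted edgeR p of 0.0699 and an adjusted p of 0.483. Of the counts of both genes, NDUFA4 took 99.2% to 99.5% in high and 99.6% in each low-NFMP steer. In the newer cattle annotation NDUFA4L2 overlaps SHMT2, whose reads cannot be told apart from its own if strand was not used in counting.

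Complex II, the succinate dehydrogenase, was read by part. SDHA, the flavoprotein, and SDHB, the iron-sulphur protein, form the soluble catalytic head, while SDHC and SDHD anchor it in the membrane and hold its haem and coenzyme Q site. Both anchor genes had an unadjusted p below 0.05 and lower levels in high NFMP, and neither head gene did. SDHC kept that p in only 6 of 15 other settings and left-out libraries, and the difference between head and anchor was not tested.

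SDHD stood at 32.0, 47.6 and 22.9 CPM in steers 3-8, 10-8 and 10-9 and at 52.9, 87.7 and 58.7 CPM in steers 3-1, 3-3 and 10-16. All 3 high-NFMP steers lay below all 3 low-NFMP steers, with 10-9 the lowest and 3-3 the highest. The log2 fold change was −0.96 (SE 0.27), the largest of all members in size, with an unadjusted edgeR p of 0.0035 and an adjusted p of 0.168. Its unadjusted p stayed below 0.05 in all 15 other settings and left-out libraries, where the log2 fold change ran from −1.27 to −0.71. The adjusted p ran from 0.0403 (DESeq2) to 0.448 (without steer 3-3) and was also below 0.05 with no filter on low counts, at 0.0434.

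SDHC stood at 132, 175 and 101 CPM in high and at 180, 162 and 224 CPM in low NFMP. Steer 10-8 lay above 3-3, so the groups overlapped, and 10-9 was again the lowest. The log2 fold change was −0.47 (SE 0.22), with an unadjusted edgeR p of 0.0486 and an adjusted p of 0.433, and the unadjusted p stayed below 0.05 in 6 of 15 other settings. It was above 0.05 without 3-8, 10-9, 3-1 or 10-16, and reached 0.246 at most in any setting.

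The head genes did not pass the test. SDHA stood at 347, 426 and 390 CPM in high and 357, 358 and 431 CPM in low NFMP, with a log2 fold change of 0.02 (SE 0.18). SDHB stood at 188, 265 and 370 CPM against 233, 253 and 256 CPM, and its log2 fold change was 0.15 (SE 0.23). In steer 10-9, SDHB was thus at its highest of the 6 and SDHC and SDHD at their lowest. Because SDHA and SDHB are the most counted of the 4, the sum for complex II moved less than the mean of its log2 levels, whose ratio was 0.792.

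**Figure D4:**
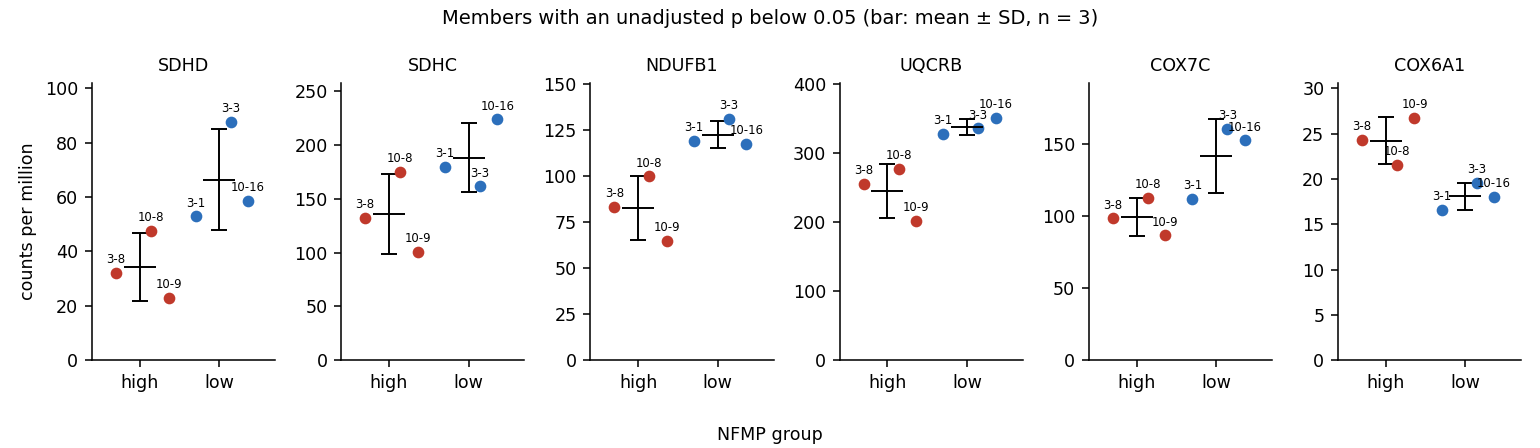
Points give CPM per steer (linear axes from 0) for the 6 members at an unadjusted p below 0.05, with the mean ± SD of each group (n = 3). SDHD, NDUFB1 and UQCRB lie below every low-NFMP steer in high NFMP, COX6A1 lies above, and SDHC and COX7C overlap.

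Complex III, the cytochrome bc1 complex, had 4 members above and 5 below 0. Its redox subunits from the nucleus, CYC1 (cytochrome c1) and UQCRFS1 (the Rieske iron-sulphur protein), summed to 281 ± 43.7 CPM in high and 317 ± 40.5 CPM in low NFMP (SD, n = 3), with overlap. CYC1 stood at 125, 168 and 154 CPM against 145, 163 and 173 CPM, a log2 fold change of −0.11 (SE 0.18). UQCR11, a small subunit and the most counted, stood at 310, 374 and 507 CPM against 308, 305 and 376 CPM, and its log2 fold change of 0.27 (SE 0.21) was the largest positive one in the complex.

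UQCRB, a small subunit also named the ubiquinone-binding protein, was the complex III member at an unadjusted p below 0.05. It stood at 255, 277 and 201 CPM in high and 328, 335 and 350 CPM in low NFMP. The groups did not overlap and the 3 low-NFMP steers were close together. Its log2 fold change was −0.47 (SE 0.19), with an unadjusted edgeR p of 0.0242 and an adjusted p of 0.346. The unadjusted p was above 0.05 without steer 10-9, without 10-16 and with age as a term, at most 0.105.

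Complex IV, cytochrome c oxidase, had 10 tested members above and 4 below 0. COX4I1, its largest nuclear subunit, stood at 379, 576 and 730 CPM in high and 443, 454 and 497 CPM in low NFMP. On the log2 scale the fold change was 0.27 (SE 0.23), and steer 3-8 was the lowest of the 6 and 10-9 the highest. COX4I1 took 99.7% to 99.9% of its counts with COX4I2, the isoform of lung, which averaged 0.729 CPM.

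COX7C, a small membrane subunit, had an unadjusted p below 0.05 and lower levels in high NFMP. It stood at 98.5, 113 and 86.6 CPM in high and 112, 161 and 153 CPM in low NFMP, and the groups overlapped only between 10-8 and 3-1. The log2 fold change was −0.51 (SE 0.19), with an unadjusted edgeR p of 0.0189 and an adjusted p of 0.322. Without steer 10-9, 3-3 or 10-16, or with limma on quantile-normalised values, the unadjusted p was above 0.05, at most 0.0863.

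The muscle isoforms of complex IV were far above their ubiquitous counterparts in every steer. COX6A2, the heart and muscle form and the most counted member of all at 681 CPM, took 96.1% to 97.6% of the counts of COX6A2 and COX6A1. COX7A1, also the heart and muscle form, took 92.2% to 96.8% of its counts with COX7A2, and COX8B took 94.0% to 96.7% with COX8A. The shares overlapped between high and low NFMP for all 3 pairs.

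COX6A1, the ubiquitous form, was the 1 member higher in high NFMP at an unadjusted p below 0.05. It stood at 24.3, 21.6 and 26.7 CPM in high and 16.6, 19.6 and 18.03 CPM in low NFMP, with no overlap. The log2 fold change was 0.42 (SE 0.19), with an unadjusted edgeR p of 0.0457 and an adjusted p of 0.426, and the unadjusted p stayed below 0.05 in 4 of 15 other settings. It was above 0.05 without any 1 of steers 3-8, 10-9, 3-1, 3-3 and 10-16. COX6A2 itself stood at 624, 828 and 667 CPM against 591, 660 and 719 CPM, a log2 fold change of 0.11 (SE 0.19).

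COX7A2 had 89, 91 and 309 counts in steers 3-8, 10-8 and 10-9 and 91, 245 and 229 counts in steers 3-1, 3-3 and 10-16. Steers 3-8, 10-8 and 3-1 formed the low values and the other 3 the high ones, across both groups, and the log2 fold change was −0.12 (SE 0.54). Without 10-9 it was −0.91, with an unadjusted edgeR p of 0.0389 and an adjusted p of 0.452. COX7A2L, a related protein that joins complexes III and IV, stood at 10.8 to 21.8 CPM with overlap.

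**Figure D5:**
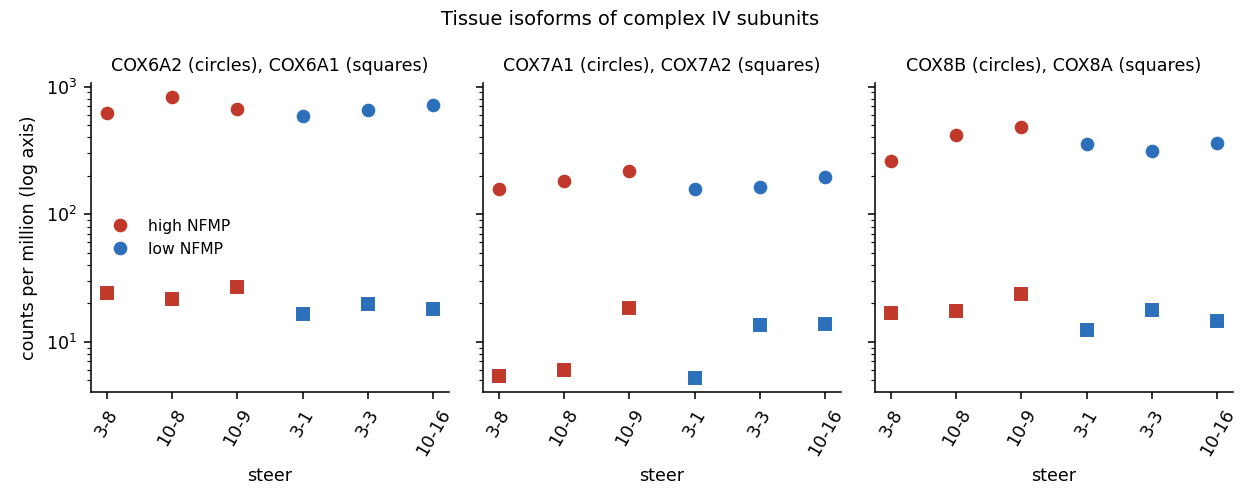
CPM per steer on a log axis for 3 isoform pairs, with circles for the muscle form and squares for the ubiquitous form, red for high and blue for low NFMP. Muscle forms lie 11.9 to 39.9 times above their partners, and COX7A2 shows 3 low and 3 high steers across both groups.

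Complex V, the ATP synthase, held 0 of 19 members at an unadjusted p below 0.05, against 11.5% of all rows in either direction. Without steer 10-8 it held 1, ATP5MC3. Of the 19 members, 10 were above and 9 below 0, in a range of −0.31 to 0.17. The 5 subunits of the catalytic F1 head summed to 1370 ± 264 CPM in high and 1360 ± 163 CPM in low NFMP (SD, n = 3). ATP5F1B, the catalytic beta subunit and the most counted of the complex, stood at 509, 838 and 699 CPM against 584, 619 and 750 CPM. Its log2 fold change was 0.07 (SE 0.22). The 4 peripheral stalk subunits summed to 829 ± 120 and 852 ± 79.4 CPM, with overlap.

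ATP5IF1, the inhibitor that stops the enzyme from splitting ATP, was the second most counted. It stood at 689, 626 and 738 CPM in high and 559, 580 and 682 CPM in low NFMP, and the log2 fold change of 0.17 (SE 0.19) was the largest positive value of the complex. ATP5ME, a small membrane subunit named after its values were seen, did not overlap between groups, but its lowest high-NFMP value was 93.6 CPM and its highest low-NFMP value 92.9 CPM, and its log2 fold change was 0.16 (SE 0.17).

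Subunit c, which forms the rotor ring, is made from 3 genes that differ in their targeting peptides. ATP5MC3 took 30.5% to 47.4% of their summed counts, ATP5MC2 30.4% to 35.4% and ATP5MC1 22.2% to 35.0%. In steer 10-9, ATP5MC1 had its highest share and ATP5MC3 its lowest, while in 10-16 ATP5MC3 was highest. ATP5MC3 stood at 310, 463 and 270 CPM in high and 381, 367 and 542 CPM in low NFMP, with a log2 fold change of −0.31 (SE 0.23), the most negative of the complex. Without 10-8 it was −0.54, with an unadjusted edgeR p of 0.0361, and without 10-9 or 10-16 it was −0.14 or −0.07.

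Within the steers whose label begins with 3 and those whose label begins with 10, the log2 ratios of the 6 members at an unadjusted p below 0.05 were −1.13 and −0.74 for SDHD, −0.37 and −0.70 for SDHC, and −0.58 and −0.51 for NDUFB1. They were −0.38 and −0.55 for UQCRB, −0.47 and −0.61 for COX7C, and 0.43 and 0.42 for COX6A1. Each ratio rests on 3 steers, and because the 6 genes were picked for their difference over the same steers, the shared signs are largely fixed by that choice. With the first number as a term, COX6A1 had an unadjusted edgeR p of 0.0559. Steer 10-9 was the lowest for all 5 of the lower genes and the highest for COX6A1.

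Assembly factors, which build the complexes without being part of them, were counted from a separate list. Of 46 tested, 0 were higher and 4 lower at an unadjusted p below 0.05 (over all rows, 5.73% and 5.74%), with 15 above and 31 below 0 and a median log2 fold change of −0.12. Of the 46, the groups did not overlap in 1 higher and 9 lower genes, while over all rows 7.97% and 9.16% did not. The share was thus under that of all rows for higher genes and above it for lower ones, which was not tested. Of the 9, 6 were among the 17 factors of complex I, as was the 1 higher gene. SDHAF4, which helps to join SDHA and SDHB, stood at 9.47, 10.4 and 9.91 CPM in high and 15.7, 16.4 and 17.3 CPM in low NFMP. It had no overlap, a log2 fold change of −0.73 (SE 0.21), an unadjusted edgeR p of 0.00307 and an adjusted p of 0.158.

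COX17, the copper chaperone of complex IV, had the most negative value of the list. It stood at 44.9, 43.9 and 13.5 CPM in high and 71.3, 166 and 67.8 CPM in low NFMP, and the log2 fold change was −1.58 (SE 0.57). As for SDHD, steer 10-9 was the lowest and 3-3 the highest. Without 3-3 the log2 fold change was −1.03, and with age as a term −2.26. The unadjusted edgeR p of 0.0304 went above 0.05 with no filter on low counts and with the first label number as a term, at most 0.0667. UQCC1, of complex III assembly, and NDUFAF2, of complex I assembly, had log2 fold changes of −0.56 (SE 0.22) and −0.57 (SE 0.26), both without overlap and both under 1.5-fold. The unadjusted p of UQCC1 was above 0.05 without 10-8 or 3-3, and that of NDUFAF2 without any 1 steer but 10-8. For NDUFAF2 it was also above 0.05 with DESeq2 and with the first label number or age as a term. Both were named with their values known.

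The mobile carriers between the complexes were read from a list of cytochrome c and coenzyme Q synthesis genes. Of 14 tested, 0 were higher and 1 lower at an unadjusted p below 0.05, near the 5.73% and 5.74% of all rows. That gene was COQ3, a methyltransferase of coenzyme Q synthesis that was under 1.5-fold and named with its value known, with a log2 fold change of −0.49 (SE 0.20), which lost that p without 3-8, 10-8, 3-1 or 10-16 and with age as a term, where it was −0.37. CYCS, cytochrome c itself, stood at 85.5, 124 and 130 CPM in high and 123, 110 and 142 CPM in low NFMP, a log2 fold change of −0.15 (SE 0.20).

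Of 14 known regulators tested, 2 were higher and 2 lower at an unadjusted p below 0.05, against 5.73% and 5.74% of all rows, 10 did not pass and edgeR called 0 after adjustment. PPARGC1A, the coactivator PGC-1 alpha that drives mitochondrial gene expression, stood at 170, 305 and 242 CPM in high and 170, 103 and 105 CPM in low NFMP. Steer 3-8 lay only just above 3-1, and the others were well apart. The log2 fold change was 0.92 (SE 0.25), with an unadjusted edgeR p of 0.00249 and an adjusted p of 0.145, which ran from 0.0294 (DESeq2) to 0.417 over the other settings and was 0.0439 with no filter. ESRRG, a nuclear receptor that works with it, had a log2 fold change of 0.69 (SE 0.19) and an adjusted p of 0.141 in edgeR, which ran from 0.0424 (DESeq2) to 0.526.

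The lower ones were TFB2M and TFAM, initiation factors that the mitochondrial RNA polymerase needs, at −0.78 (SE 0.22) and −0.50 (SE 0.22). NRF1, a transcription factor of nuclear respiratory genes, had −0.42 (SE 0.25) and overlapping groups. Unadjusted edgeR p-values were 0.00256 for TFB2M, 0.0419 for TFAM and 0.116 for NRF1, and that of TFAM was above 0.05 without 3-8, 10-8, 3-3 or 10-16, with age as a term and with limma on quantile-normalised values, at most 0.172.

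The 13 subunits carried in the mitochondrial genome stood apart from the nuclear ones in their sums. They summed to 180419, 216743 and 164948 CPM in high and 147228, 115831 and 156165 CPM in low NFMP, with no overlap and a ratio of 1.34. All 13 log2 fold changes were positive, from 0.03 to 0.66, but they come from the same 6 steers and are not separate observations. The groups did not overlap in 3 of the 13, all higher, against 7.97% of all rows. The same 3 had an unadjusted p below 0.05 (5.73% of all rows were higher at that p), namely ND5 at 0.48 (SE 0.21), ND3 at 0.66 (SE 0.26) and ATP6 at 0.59 (SE 0.26). Each lost that p without 10-8 and without 3-3, and further without 10-16 (ND3), 3-1 (ATP6), or 3-8 or 3-1 (ND5). With limma on quantile-normalised values all 3 lost it, and ATP6 moved from 0.59 to 0.22, and with age as a term ND5 and ATP6 lost it. ND5 was under 1.5-fold and named with its value known. The difference between the mitochondrial and nuclear sums was not tested, and steer 3-8, lowest for the nuclear members, was the second highest for the mitochondrial ones.

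Other markers of mitochondrial content and fibre type gave the setting of the member levels. Of 11 mitochondrial genes outside the chain, among them citrate synthase (CS) and the VDAC pores, 0 had an unadjusted p below 0.05, and their sums had a ratio of 1.00. Slow fibre markers summed to 12496 ± 2719 CPM in high and 11627 ± 1726 CPM in low NFMP, and fast fibre markers to 33849 ± 6568 and 31866 ± 2985 CPM (SD, n = 3), both with overlap. MYL3, a slow myosin light chain, was the 1 slow marker of 11 at an unadjusted p below 0.05, with a log2 fold change of −0.78 (SE 0.21) and an adjusted edgeR p of 0.145, which ran from 0.0403 (DESeq2) to 0.453 and was 0.0487 with no filter. Of 12 fast markers 11 had positive log2 fold changes and 1, PVALB, a calcium buffer of fast fibres, was at an unadjusted p below 0.05. PVALB stood at only 3.14, 3.31 and 1.07 CPM in high and 1.31, 0.881 and 0.901 CPM in low NFMP, with overlap and a log2 fold change of 1.27 (SE 0.48). It lost that p without 3-8, 10-8 or 3-3 and with age as a term.

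Some member counts may hold reads of a neighbour, or a neighbour's row may hold reads of a member. In the newer cattle annotation, 22 of the 85 members overlap another gene, and 19 of these overlap one that also has counts. ATP5F1B, ATP5F1C, NDUFA2 and UQCRC2 each have nearly the same CPM in every steer as an overlapping gene (LOC112446708, LOC112449254, TMCO6 and PDZD9). NBAS, which overlaps COX8B, lay above it in every steer, at 347 to 579 CPM against 260 to 481 CPM, and ranked the steers in the same order. To which gene of a pair the reads belong was not tested. Of the 6 members at an unadjusted p below 0.05, COX7C overlaps a small nucleolar RNA gene and the other 5 overlap none. Reads from processed copies of these short genes were not looked at.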

How the data were processed

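Muscle RNA of 6 steers was made into libraries with a Lexogen 3′ mRNA kit and sequenced by the authors. The deposited values are raw counts per gene symbol, 1 table per steer. The study's text names Tophat2 with UMD3.1 for mapping and HTSeq for counting, and elsewhere Bowtie2 for alignment with unique and multiple hits, and the submitters' processing notes list Bowtie2 and bedtools. Which of them gave these counts, and whether strand was used, could not be settled from the study's text or the labels. The authors compared quantile-normalised values.

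Here, counts were tested in R 4.3.3 with edgeR 4.0.16 (TMM factors of 0.915 to 1.08, filterByExpr with a minimum count of 10 and a minimum total of 15, robust quasi-likelihood fit on group alone). P-values were adjusted by Benjamini and Hochberg over all 15039 tested rows, which hold at least 99.8% of each library. CPM were divided by TMM-scaled library sizes, and deviations used log2 of CPM plus 0.5. With 3 steers against 3, an exact permutation test of a single value cannot go below p = 0.1, so none was run. Alternatives were DESeq2 1.42.0, limma 3.58.1 on quantile-normalised log2(count + 1), other scalings and filters, terms for age or for the first number of the steer label, and each library left out.

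The members and gene lists were chosen with earlier results of these data known. Genes were named if their unadjusted p was below 0.05, if they were the 2 most counted or had the largest change in either direction in a complex, if they were isoform pairs, complex II genes or CYC1, or, in other lists, if they passed that p with a fold above 1.5, and others are marked as named after their values were seen. PPARGC1A, NRF1, TFAM and CYCS were also named. Of the members, 82 matched the ARS-UCD2.0 gene table by symbol and 3 by synonym, and its coordinates served only to find which genes overlap in that assembly, since the builds differ. The values of 1 complex I member are not reported here.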

Additional observations from a re-analysis of the deposited data

How the results depend on the processing

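Among the results recomputed under these settings, which leave out LIPE, PLIN4, PDGFRA and MYOT, none that passed its test changed sign. Members higher in high NFMP at an unadjusted p below 0.05 numbered 1, and 0 with no filter on low counts, library totals alone, DESeq2, quantile normalisation with limma, the first label number as a term or age as a term. Lower members numbered 5, 3 with limma or with age as a term, and 7 with library totals alone or with the first label number as a term. Over all rows, 11.5% were at that p in either direction in the main fit and 9.76% with no filter. The share was 11% with library totals alone, 11.3% with DESeq2 and 11% with limma. It was 10.1% with the first label number as a term and 8.38% with age as a term. Leaving out 1 steer gave 0 to 6 higher and 2 to 7 lower members, while 8.45% to 15.3% of all rows were called in either direction. With a fold above 2 as well, members numbered 0, and 1 with library totals or age as a term and 0 to 1 with a steer left out. At an adjusted p below 0.05 they numbered 0, and 1 with no filter and with DESeq2, SDHD in both. Over all rows, 3.9% and 0.685% passed these rules in the main fit, and the shares in the other settings are not given here. The ratio of complex II was 0.941 from summed CPM and 0.792 from the mean of log2 levels. Counting NDUFA4 in complex IV was a setting chosen after seeing the data. The cause of these changes was not tested, beyond the smaller number of steers when 1 is left out. No paired analysis was possible because each steer is in 1 group and replicate numbers were given in accession order, so they pair no steers. With 3 steers a group, the median standard error of a member, 0.19 on the log2 scale, limits what could be called.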
